A study of Homo sapiens with 9 samples.

Results

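The transcriptome described here is that of HCT116 cells that received a control siRNA, taken from the 3 control libraries of a series of 9. The libraries were chosen by label alone, as the 3 columns of the deposited table that carry the control name. The other 6 columns, from cells in which the non-coding transcript SNHG5 was targeted, were not used. HCT116 is an established human colorectal cancer line, and all 3 control libraries share the line, the medium with fetal bovine serum, the lipid reagent and a commercial non-targeting siRNA at 25 nM given by reverse transfection. That concentration is the one on the labels; the study's general methods state a higher one, and which was used for these libraries was not settled here. The values therefore describe transfected cells of a single line, not untreated cells and not colon tissue. Polyadenylated RNA was enriched on oligo-dT, and each fragment was sequenced from 1 end for 50 bases.

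The colon is lined by a single layer of epithelial cells that renews from stem cells at the base of the crypts under WNT signalling. Their daughters mature into absorptive colonocytes, mucus-secreting goblet cells and rarer hormone-secreting and tuft cells, under transcription factors such as CDX2, HNF4A and ATOH1. Colorectal cancer lines keep part of this programme and lose part of it. HCT116 is widely used as a line with defective DNA mismatch repair and an activated WNT pathway. The lists of genes below follow these roles.

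The 3 libraries held 22050313, 19313669 and 20741662 reads. A value of 1 CPM (reads of a gene per 1000000 reads of the library) corresponded to 19.3 to 22.1 reads and thus to a Poisson error of 21.3% to 22.8%, and 3 reads stood for 0.136 to 0.155 CPM. Intervals and floors of this kind cover counting error only. A gene at 1 CPM or more in all 3 libraries is called detected: 13282 of the 15354 rows were detected (86.5%), 361 were at 0 in all 3 libraries (2.35%) and 1711 lay between. Among protein-coding rows 11601 of 12794 were detected (90.7%), and among long non-coding RNA rows 1240 of 1877 (66.1%). Counts of detected genes in the lists below are to be read against these shares. The row filter that made the table was not given in the sources used here, so a gene without a row was not analysed here and is not called silent.

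Expression was concentrated in few genes. The 10 highest rows took 12.9% to 16.04% of the reads of a library, the 100 highest took 26.1% to 29.97%, and 701 to 862 rows held 50% of the reads. The median row stood at 18.996 to 20.6 CPM. Between 52 and 53 rows reached 1000 CPM in each library. Nuclear protein-coding genes took 78.1% to 81.9% of the reads and long non-coding RNAs 2.05% to 2.43%.

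**Figure D1:**
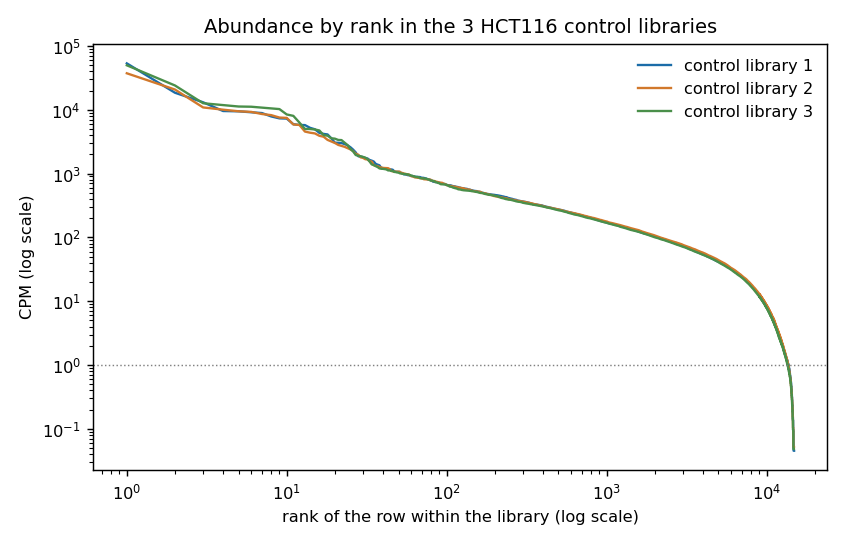
The CPM of each row (vertical axis, log scale) is drawn against its rank within the library (horizontal axis, log scale), 1 line for each control library, with a dotted line at 1 CPM. The 3 lines lie over each other except among the highest rows, and they fall steeply beyond the 13562 to 13690 rows that reached 1 CPM in a single library.

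The mitochondrial chromosome led the order of abundance. Its 32 rows took 14.99% to 18.7% of the reads, and all but 1 were detected. Levels are compared between genes only as RPKM, the CPM divided by the length in kilobases, with the length taken from the merged annotated exons of the gene. MT-RNR2, the 16S ribosomal RNA of the mitochondrion, was first, with 53263, 37230 and 49665 CPM and a mean RPKM of 29967 ± 5396 (SD, n = 3). It was lowest in control library 2, as was MT-RNR1, the 12S ribosomal RNA, with 13075, 7446 and 11225 CPM. Among the mitochondrial mRNAs, MT-ND4, a subunit of respiratory complex I, stood at 18457, 20715 and 23993 CPM and a mean RPKM of 15279 ± 2020 (SD, n = 3). MT-CO1, the catalytic core of cytochrome c oxidase, stood at 9115, 10857 and 11804 CPM, and a mean RPKM of 6869 ± 884 (SD, n = 3). MT-ATP8 and MT-ND4L also ranked among the 5 highest rows by RPKM, but these short genes overlap MT-ATP6 and MT-ND4, so their reads can be shared. Of the 25 neighbouring pairs at the top of the RPKM order, 21 had overlapping values over the 3 libraries and 4 were separated. Separated means that the lowest value of the higher gene lay above the highest value of the lower gene. A pair that overlaps in this way can still keep its order within each library, which was not counted.

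After the mitochondrial genes came the cytoskeleton, chaperones, glycolysis and translation. TMSB10, a small actin-binding protein, was the highest nuclear gene by RPKM at 1920 ± 243 (SD, n = 3), with 1014, 835 and 807 CPM. ACTG1 (gamma-actin) followed at 1358 ± 109 with 5743, 5772 and 4995 CPM, and ACTB (beta-actin) stood at 952 ± 39.8 with 4334, 4251 and 3998 CPM (SD, n = 3 for both). FTL, the ferritin light chain that stores iron, reached an RPKM of 1244 ± 140 (SD, n = 3). The chaperones HSP90AB1, HSP90AA1 and HSPA8 reached 1220 ± 158, 916 ± 133 and 655 ± 35.3 RPKM (SD, n = 3 each). GAPDH, of glycolysis, stood at 982 ± 84.6 RPKM (SD, n = 3), below HSP90AB1 in all 3 libraries, but on the canonical length described below GAPDH was the higher. EZR, which links actin to the membrane of microvilli, stood at 730 ± 9.45 RPKM, HMGA1, a chromatin protein abundant in many tumours, at 718 ± 55.5, and EEF2, the translocation factor of the ribosome, at 715 ± 37.7 (SD, n = 3 each). These 3 genes could not be ordered. Only 3 of the 25 neighbouring pairs at the top of the nuclear order were separated in the sense given above, with no overlap of values across libraries.

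AKAP12, a scaffold for protein kinase A, was among the most abundant nuclear mRNAs by reads, at 4940, 3775 and 3920 CPM, with 480 ± 72.4 RPKM (SD, n = 3). MALAT1, a long nuclear non-coding RNA, took 5924, 3011 and 4731 CPM and 437 ± 140 RPKM (SD, n = 3). Library 2 was the lowest for both. Several rows near the top are short genes lying within or across abundant ones, so their reads may come from those genes. ENSG00000267458 overlaps CALR, ENSG00000262831 overlaps P4HB, ENSG00000265401 overlaps UBB, and MIR1282 overlaps SERF2. MTRNR2L1, a nuclear copy of part of the mitochondrial 16S gene on chromosome 17 (22022437 to 22023991, GRCh37), was listed at 1737, 1070 and 1263 CPM, and reads of near-identical sequence cannot be assigned with certainty. Its level was lowest in the same library as that of MT-RNR2.

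The merged exon length includes exons kept in rare isoforms, and the length used matters for small, abundant genes. With the length of the Ensembl canonical transcript, 1 representative isoform for each gene, the nuclear order was led by ACTG1 (2868 ± 230 RPKM), ACTB (2315 ± 96.7), TMSB10 (1920 ± 243) and GAPDH (1832 ± 158; SD, n = 3 each). RACK1, a ribosome-bound scaffold, RPS24 and the non-coding SNHG29 stood at places 9, 12 and 15 of this nuclear order. Ranked over all rows, mitochondrial ones included, RACK1 rose from 77 to 22, RPS24 from 459 to 25 and SNHG29 from 815 to 28. Rows without a canonical transcript drop out of the second rank, which is a part of each rise. This length was chosen after the values had been seen, and is called the canonical length below.

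All 83 genes of cytosolic ribosomal proteins were detected, yet they took only 1.98% to 2.51% of the reads. Ribosomal proteins are needed in equal numbers in the ribosome, but their listed RPKM on the canonical length ran from 6.25 for RPS28 to 1105 for RPL8. RPL8 stood at 1346, 1100 and 1099 CPM, RPS6 at 968, 802 and 832, and RPLP2 at 483, 355 and 359. RPL39 was listed at 6.26, 5.90 and 5.3998 CPM, and RPS27 had a mean of 6.45 CPM. The low values were similar in all libraries, so the gap between RPL8 and RPL39 is far larger than the spread between replicates. These genes have many processed copies in the genome, and a read of 50 bases that matches several places cannot be assigned to a single gene.

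How often that would happen was counted on the GRCh37 sequence, as the share of all 50-base windows of the canonical transcript found more than once in the genome on either strand. Over the 83 genes the median share was 28.6%, against 0% over all nuclear rows. The 17 genes with a share of up to 5% had a median canonical RPKM of 312, and the 11 genes above 75% had a median of 32.5. The genes between did not fall in step: the medians were 180 at 5% to 25% (21 genes), 148 at 25% to 50% (21 genes) and 254 at 50% to 75% (13 genes). Across the 83 genes Spearman's rho between share and canonical RPKM was −0.33, and −0.44 with the merged exons. The points share the same 3 libraries, and both measures depend on the annotated transcript. RPS28 was low at a share of 13.3% and RPL7 at 55.9%, while RPS20 and RPS24 were high at shares of 46.4% and 34.3%. The part that discarded reads play in these levels was not tested, because how the counting treated reads with several matches was not given in the sources used here.

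**Figure D2:**
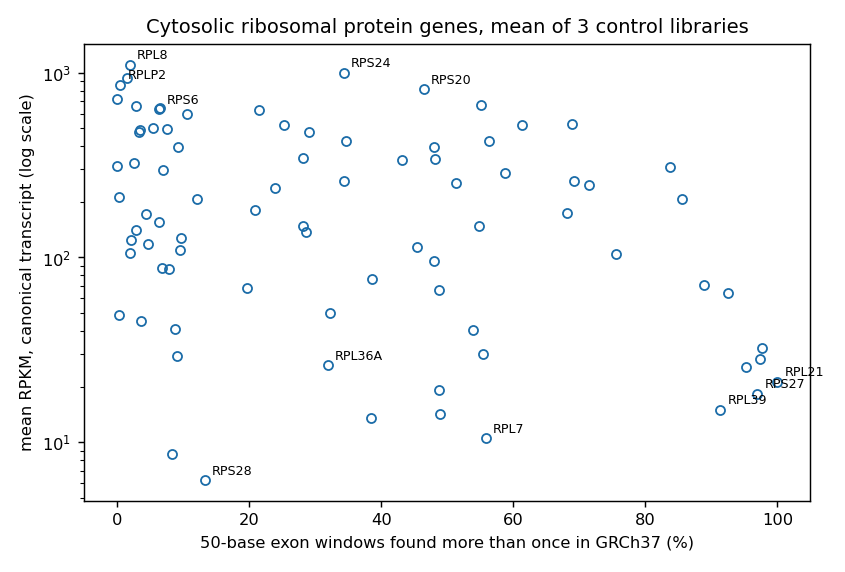
Each circle is a cytosolic ribosomal protein gene, with the share of its 50-base exon windows found more than once in GRCh37 on the horizontal axis and its mean RPKM of 3 libraries, on the canonical length and a log scale, on the vertical axis. The genes above 75% lie mostly low, with a median of 32.5, while those up to 5% have a median of 312 and a wide range from 45.4 to 1105.

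The same question touches EEF1A1, which delivers aminoacyl-tRNA to the ribosome and is among the most abundant mRNAs of most cells. It was listed at only 314, 294 and 305 CPM, with a canonical RPKM of 86.6, while EEF1A2, its paralog of muscle and nerve, was listed at 316, 290 and 338 CPM, with a canonical RPKM of 178. Of the coding windows of EEF1A1, 94.4% occurred more than once in the genome, and of those of EEF1A2 none did. To show what a read of each looks like, the first EEF1A1 coding window with the most copies (10 in the genome) is given with the EEF1A2 window nearest to it (1 copy). Capitals mark the 11 of 50 bases at which the pair differ. Both are from GRCh37, on the minus strand, at chr6:74227538-74227587 for EEF1A1 and chr20:62119659-62119708 for EEF1A2. The coding window of RPL39 with the most copies (7), at chrX:118923896-118923945 on the minus strand, is shown for comparison. All 55 coding windows of RPL39 occurred more than once.
EEF1A1: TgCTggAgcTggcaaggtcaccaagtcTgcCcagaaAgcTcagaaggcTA
EEF1A2: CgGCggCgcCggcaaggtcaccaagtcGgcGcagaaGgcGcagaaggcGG
RPL39: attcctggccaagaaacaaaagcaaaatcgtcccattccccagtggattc

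The shown windows of the paralogs thus differ from each other. A read of the shown EEF1A1 window matches several places and cannot be assigned to a single gene. How far the paralogs differ over their other windows was not tested, and neither was the part that repeated windows play in the EEF1A1 level. EEF1A1 also overlaps MTO1 and an antisense gene, so its row is uncertain for that reason too. PTMA, with 72.7% of its windows repeated, was nevertheless high, with a canonical RPKM of 807 ± 130 (SD, n = 3).

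Epithelial genes were high as a list. All 20 were detected, where 90.7% of all protein-coding rows were, and their median RPKM was 19.6 against 4.24 over all rows. The keratins of simple epithelia led: KRT19 stood at 531, 521 and 514 CPM, KRT8 at 916, 902 and 884 CPM, and KRT18 at 445, 418 and 395 CPM. By RPKM they stood at 223 ± 3.5, 131 ± 2.3 and 137 ± 8.1 (SD, n = 3 each), so KRT19 was above the other pair, and KRT8 and KRT18 did not differ beyond their spread. EPCAM, the adhesion molecule used to recognise epithelial tumours, stood at 214, 186 and 214 CPM, and JUP (plakoglobin) and DSP (desmoplakin), which build desmosomes, at 41.0 ± 4.1 and 28.2 ± 1.3 RPKM (SD, n = 3). ST14, a membrane protease of epithelia, stood at 38.2 ± 2.5 RPKM (SD, n = 3). OCLN, a tight junction protein, was the lowest of the list at 11.3, 16.3 and 14.3 CPM. Of 12 keratin rows 9 were detected, and 8 stood at 10 CPM or more on average. KRT7 stood at 17.3, 18.6 and 19.04 CPM, while KRT20, a marker of mature intestinal cells, gave 0.363, 0.569 and 0.820 CPM. Of 10 claudin rows 7 were detected, led by CLDN7 (24.7 ± 3.2 RPKM) and CLDN4 (16.9 ± 2.9 RPKM; SD, n = 3), and CLDN1 was at 0 in all 3 libraries.

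Mesenchymal genes were low. Of the 15 listed, 9 had rows and 6 of these were detected, with a median of 0.608 RPKM. VIM, the intermediate filament of mesenchymal cells, stood at 3.54, 4.66 and 3.09 CPM. SNAI1 and ZEB1, repressors of epithelial genes, stood at 10.1, 11.9 and 9.40 CPM and at 12.6, 11.1 and 13.1 CPM. FN1 (fibronectin) stood at 8.71, 12.3 and 10.4 CPM and COL1A1 at 19.5, 18.3 and 19.3 CPM. The list was therefore not silent, but KRT8 and KRT18 stood more than 100 RPKM above every member.

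**Figure D3:**
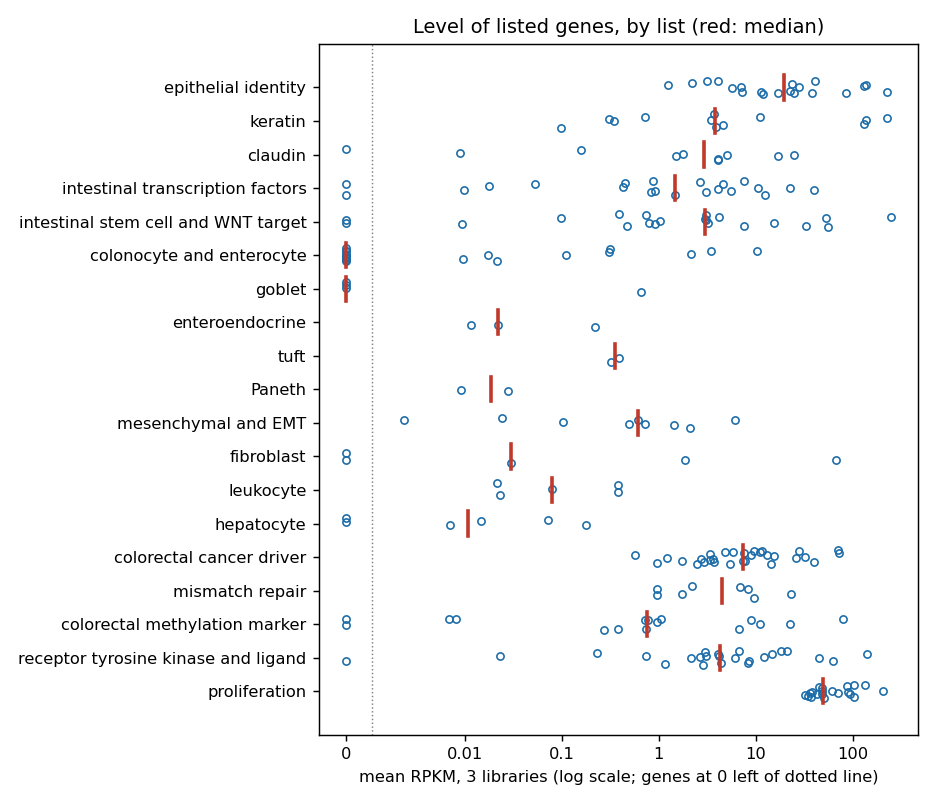
Each circle is a listed gene with a row in the table, placed by its mean RPKM over the 3 control libraries (log scale); genes at 0 are drawn left of the dotted line, and the red bar is the median of the list. Epithelial and proliferation genes lie to the right, with medians of 19.6 and 49.4 RPKM, and the colonocyte and goblet lists have a median of 0.

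Of 25 intestinal transcription factors 21 had rows and 16 of these were detected, or 76.2%, against 90.7% of all protein-coding rows. SOX9, a factor of crypt progenitors, was the highest by RPKM at 40.1 ± 9.6 (SD, n = 3), with 121, 196 and 155 CPM. KLF5, a factor of proliferating crypt cells, stood at 79.2, 80.5 and 86.1 CPM. HES1, the Notch target that opposes secretory fate, stood at 28.7, 17.0 and 18.5 CPM. The homeobox factor CDX2 stood at 16.7, 15.8 and 16.1 CPM. GATA4, which marks the proximal intestine, and ASCL2, a stem cell factor, were at 0 in all 3 libraries, FOXA2 was at 1 read in each, and CDX1, ATOH1 and SPDEF had no row.

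Of the colonocyte and enterocyte genes, 19 of 30 had rows, 4 were detected and 10 were at 0 in all 3 libraries, against 2.35% of all rows at 0. Which genes without reads kept a row depends on the unknown row filter, so neither share is that of all genes. The 4 detected genes were CA2, a carbonic anhydrase (19.4, 23.2 and 18.6 CPM), VIL1, villin, the actin bundler of microvilli (23.6, 23.5 and 24.6 CPM), SLC26A2, a sulfate transporter (18.3, 25.9 and 21.0 CPM), and SLC9A3, a sodium-proton exchanger (1.18, 2.43 and 1.83 CPM). Those at 0 include FABP1, the fatty acid carrier of enterocytes, ALPI, the alkaline phosphatase of the brush border, SI, sucrase-isomaltase, and CEACAM5, CEACAM6 and CEACAM7, adhesion proteins of the colon surface. Each 0 allows up to 0.136 to 0.155 CPM. Of 4 goblet rows KLK1 alone was detected (1.54, 1.92 and 1.25 CPM), and TFF3, AGR2 and REG4 were at 0. Of 3 enteroendocrine rows none was detected in all 3 libraries, and TPH1, which makes serotonin, came nearest at 0.726, 1.76 and 1.21 CPM. The tuft genes PTGS1 and AVIL were just detected, at 1.86, 2.95 and 1.88 CPM and at 1.995, 2.23 and 1.54 CPM, but the defining tuft factor POU2F3 had no row. The Paneth rows LYZ and ITLN2 stayed at or below 0.145 CPM.

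Of 21 stem cell and WNT target rows 16 were detected (76.2%), against 90.7% of all protein-coding rows, 3 lay between and 2 were at 0. The list median of 2.98 RPKM lay below the 4.24 of all rows. CCND1, cyclin D1, was high at 1147, 1217 and 1184 CPM, and CD44, a receptor for hyaluronan, stood at 470, 579 and 548 CPM. MYC stood at 301, 371 and 347 CPM and RNF43, a ligase that removes WNT receptors, at 81.1, 119.8 and 90.9 CPM. LGR5, the marker of crypt stem cells, gave 1 read in each library (0.0454, 0.0518 and 0.0482 CPM), and LEF1 and ASCL2 were at 0. TCF7L2, the main WNT effector of the intestine, stood at 165.8, 200.5 and 193.6 CPM. By RPKM it stood at 27.7 ± 2.7 and CTNNB1 (beta-catenin) at 25.7 ± 3 (SD, n = 3). The means lay within the spread over libraries, but TCF7L2 was the higher of the pair within each library.

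The genes at 0 had promoters of both the CpG-poor and the CpG-rich kind. CpG-rich promoters belong mostly to widely expressed genes, and CpG-poor ones mostly to tissue-restricted genes, and dense methylation silences CpG-rich promoters in many colorectal cancers. The 250 bases before the RefSeq start (GRCh38.p14) were matched by symbol for 10368 protein-coding rows, and the dinucleotide CG, which reads the same on both strands, was counted. Detected genes held a median of 21 CG (9473 genes), genes at 0 a median of 8 (202 genes) and those between a median of 11 (693 genes). The genes at 0 are only those that an unknown row filter kept, not a sample of all silent genes. What part the filter plays in their CG counts was not tested. At least 20 CG were held by 57.9% of detected genes and 27.2% of the genes at 0, against 32.1% of all 27305 promoters in the reference table. Among the 20 listed genes at 0 with a promoter, 17 held 11 CG or fewer, and CHFR, CLDN1 and TUBB2B held 28 each. CHFR guards entry into mitosis and is a known target of promoter methylation in colorectal cancer. EZR, which was among the most abundant nuclear genes, also held 28.

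These 5 promoters are shown to make this contrast visible, with each CG in capitals: 2 of silent enterocyte genes (SI and FABP1, with 0 and 4 CG), 2 of silent CpG-rich genes (CHFR and CLDN1) and 1 of a highly expressed CpG-rich gene (EZR). They were chosen after their values were seen, all lie on the minus strand, and the coordinates are GRCh38.p14: chr3:165078497-165078746 for SI, chr2:88128063-88128312 for FABP1, chr12:132887606-132887855 for CHFR, chr3:190322447-190322696 for CLDN1 and chr6:158818236-158818485 for EZR.
SI: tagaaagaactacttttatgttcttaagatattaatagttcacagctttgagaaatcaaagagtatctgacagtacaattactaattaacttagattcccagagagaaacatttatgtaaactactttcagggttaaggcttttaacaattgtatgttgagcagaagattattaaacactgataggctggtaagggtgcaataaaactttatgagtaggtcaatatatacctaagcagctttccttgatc
FABP1: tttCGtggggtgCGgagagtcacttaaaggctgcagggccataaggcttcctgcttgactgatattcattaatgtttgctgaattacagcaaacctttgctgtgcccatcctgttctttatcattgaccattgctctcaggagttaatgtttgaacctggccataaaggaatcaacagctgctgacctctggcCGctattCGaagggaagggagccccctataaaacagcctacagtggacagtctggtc
CHFR: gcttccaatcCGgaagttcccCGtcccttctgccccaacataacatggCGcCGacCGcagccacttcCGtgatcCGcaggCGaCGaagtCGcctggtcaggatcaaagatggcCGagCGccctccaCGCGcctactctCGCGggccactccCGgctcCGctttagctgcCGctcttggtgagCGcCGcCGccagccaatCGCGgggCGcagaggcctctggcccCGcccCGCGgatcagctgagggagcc
CLDN1: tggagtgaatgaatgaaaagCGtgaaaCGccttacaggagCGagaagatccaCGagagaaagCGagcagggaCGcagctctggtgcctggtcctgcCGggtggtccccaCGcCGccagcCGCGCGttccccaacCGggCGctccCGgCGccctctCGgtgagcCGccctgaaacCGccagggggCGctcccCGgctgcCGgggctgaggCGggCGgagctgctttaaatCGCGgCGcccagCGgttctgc
EZR: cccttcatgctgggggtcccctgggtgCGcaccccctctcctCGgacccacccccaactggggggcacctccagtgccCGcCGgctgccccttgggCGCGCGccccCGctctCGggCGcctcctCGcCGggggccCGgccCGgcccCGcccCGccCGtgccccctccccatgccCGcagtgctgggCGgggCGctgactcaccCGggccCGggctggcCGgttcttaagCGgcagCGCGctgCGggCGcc

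By CG count alone CHFR and CLDN1 cannot be told from EZR, while their reads were 0 in all 3 libraries and EZR stood at 730 RPKM. Methylation was not measured in these libraries, and its part was not tested.

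Genes often mutated in colorectal cancer were all transcribed. Each of the 30 driver genes was detected, where 90.7% of all protein-coding rows were. Their median RPKM was 7.42, against 4.24 over all rows. FAT1, a giant cadherin, took the most reads, at 727, 1539 and 1118 CPM, and was among the genes with the largest excess in library 2. B2M, the light chain of HLA class I, stood at 226, 208 and 234 CPM and NRAS at 126, 157 and 136 CPM. CTNNB1 stood at 265, 336 and 307 CPM. The lowest by RPKM were BRAF (0.563 ± 0.13), AMER1 (0.954 ± 0.15) and BMPR1A (1.22 ± 0.22; SD, n = 3 each). On the canonical length BRAF stood at 2.04 RPKM and the list median at 14.7, so the levels depend on the length used.

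All 8 mismatch repair genes gave reads above the limit, where 90.7% of all protein-coding rows did. Their median of 4.48 RPKM was close to the 4.24 of all rows. MSH6, which takes part in recognising mismatches, stood at 105.5, 128.3 and 126.7 CPM. EXO1, the exonuclease that removes the mismatched strand, was highest by RPKM at 23.1 ± 0.83 (SD, n = 3). MSH3, which acts on longer loops, was low at 7.44, 3.31 and 4.63 CPM and 0.962 ± 0.4 RPKM (SD, n = 3). Library 1 was the highest for MSH3 and the lowest for MSH6 and EXO1. RNA levels do not show whether the encoded protein is made.

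Of 26 genes often methylated in colorectal cancer, 16 had rows and 12 of these were detected (75%), against 90.7% of all protein-coding rows. DKK1, a secreted WNT antagonist, was the highest at 178, 177 and 175 CPM, and CDKN2A, an inhibitor of cyclin-dependent kinases, stood at 36.7, 32.2 and 34.9 CPM. CHFR and GATA5 were at 0 in all 3 libraries, SFRP5 gave 1 read in library 1, and SFRP1, SFRP2 and WIF1 had no row.

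Receptor tyrosine kinases and their ligands were detected in 22 of 24 rows, or 91.7%, close to the 90.7% of all protein-coding rows. EREG (epiregulin), a ligand of the EGF receptor, was the highest at 730, 805 and 838 CPM and 138 ± 9.7 RPKM (SD, n = 3). EPHA2 stood at 239, 283 and 247 CPM, MET at 255.2, 390.4 and 313.8 CPM, AXL at 102, 116 and 102 CPM and the ligand TGFA at 58.2, 85.5 and 71.8 CPM. EGF itself stayed at 0.0964 to 0.272 CPM and PDGFRA at 0.

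Of the genes of drug response 15 of 16 were detected (93.75%), close to the 90.7% of all protein-coding rows. TYMS, the target of fluorouracil, stood at 218, 222 and 229 CPM, and TOP1, the target of irinotecan, at 885, 714 and 835 CPM. DPYD, which breaks down fluorouracil, was low at 1.09, 1.40 and 1.20 CPM, ABCB1, a drug efflux pump, stood at 2.72, 3.11 and 3.28 CPM, and UGT1A1, which inactivates the active form of irinotecan, was at 0. All 20 proliferation genes were detected with a median RPKM of 49.4, against 4.24 over all rows. MKI67 stood at 1176, 1083 and 1096 CPM, PCNA at 280, 269 and 310 CPM and CDK1 at 144, 146 and 142 CPM. Of the antigen presentation genes 13 of 15 rows were detected (86.7%), near the same background share. HLA-C stood at 164, 156 and 167 CPM, whereas the class II genes HLA-DRA and CD74 stayed at 0.434 to 0.621 and 0.104 to 0.227 CPM.

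Some enzymes and structural proteins exist as general and tissue-restricted forms. All 19 glycolysis genes with rows were detected, where 90.7% of all protein-coding rows were. ENO1 stood at 321 ± 27 RPKM and ENO2, the neuronal enolase, at 10.4 ± 1.1. ALDOA stood at 281 ± 20 and ALDOC at 4.89 ± 0.81 (SD, n = 3 each). LDHB, the form of oxidative tissues, stood at 232 ± 23 RPKM and LDHA, the form of glycolytic tissues, at 137 ± 3.2 (SD, n = 3); the order held on the canonical length, at 530 and 369. Of the isoform pairs 27 of 31 rows were detected (87.1%). CKB, brain creatine kinase, stood at 109 ± 7.7 RPKM (SD, n = 3), TUBB, a broadly expressed beta-tubulin, at 460 ± 24.7, and TUBB2B and SLC2A2, the glucose transporter of liver, at 0. All 16 genes commonly used to normalise PCR were detected, from GAPDH down to GUSB at 30.6, 31.2 and 26.3 CPM and 7.54 ± 0.69 RPKM (SD, n = 3).

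Transfection can trigger stress and interferon responses, and untreated cells were not analysed here. Of 33 stress genes with rows 29 were detected (87.9%), near the 90.7% of all protein-coding rows. IER3, an early response gene, led at 359, 324 and 322 CPM, with HSPA1B, an inducible chaperone, at 226, 179 and 164 CPM. Of 12 interferon-stimulated rows 10 were detected (83.3%). ISG15 stood at 46.6, 37.2 and 30.9 CPM, while IFIT1, IFIT2 and IFIT3 stood between 0.725 and 3.47 CPM, and OAS1 at 0.0454 to 0.104 CPM. MX1, OAS2 and IFNB1 had no row. All 13 genes of the RNA interference machinery were detected, where 90.7% of all protein-coding rows were. AGO2, the slicing Argonaute, stood at 41.9, 56.7 and 46.5 CPM and AGO1 at 71.8, 110.5 and 86.6 CPM. By RPKM XPO5, the exporter of miRNA precursors, was the highest of them at 20.9 ± 2.9, and AGO3 the lowest at 0.712 ± 0.098 (SD, n = 3).

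Of 27 listed long non-coding RNAs with rows 24 were detected (88.9%), against 66.1% of all long non-coding RNA rows. After MALAT1 came hosts of small nucleolar RNAs: SNHG1 stood at 272, 267 and 261 CPM and 67.0 ± 1.4 RPKM, SNHG16 at 263, 193 and 202 CPM and 37.95 ± 6.6 RPKM (SD, n = 3). SNHG5, the transcript the series was made to deplete, stood at 35.6, 26.3 and 28.6 CPM, or 786 reads in library 1. Its annotated gene spans chr6:86360209-86388650 on the minus strand of GRCh37. Its RPKM was 2.40 ± 0.39 (SD, n = 3) with merged exons, which placed it at rank 9282 between MPLKIP and ENSG00000268120, and TSC2 and ABCD4 were the next nearest. With the canonical transcript of 1316 bases its RPKM was 22.9, so its place in the order rests on the length. Its shorter isoforms would give higher values, and a table of reads per gene does not show which isoform they came from. It overlaps 2 other annotated genes on the same strand. Of the other genes the study followed, all 8 were detected: ARF1 stood at 424, 429 and 397 CPM, BCL2L1 at 301, 340 and 284, STAU1 at 207, 233 and 218, PITRM1 at 116, 134 and 113, STAT3 at 90.5, 115 and 103, SPATS2 at 115, 98.8 and 89.9 and GLE1 at 70.0, 80.2 and 76.2. BCL2 was low, at 2.40, 3.62 and 2.02 CPM. By RPKM its anti-apoptotic relative BCL2L1 stood at 73.5 ± 6.8 and BCL2 at 0.213 ± 0.066 (SD, n = 3).

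HOX genes, which keep the position of a cell along the body axis, were expressed mainly from the HOXA and HOXB clusters. Of 30 HOX rows 26 were detected (86.7%), near the 90.7% of all protein-coding rows. The summed RPKM was 82.7 for the 9 HOXB rows and 75.2 for the 11 HOXA rows, against 12.8 for the 7 HOXC rows and 2.16 for the 3 HOXD rows. By library the HOXA sums were 77.9, 67.7 and 80.0 and the HOXB sums 82.8, 85.3 and 80.1, so the highest HOXA library lay just under the lowest HOXB library. HOXA9 was the highest gene at 96.5, 84.0 and 108 CPM and 31.7 ± 4.0 RPKM (SD, n = 3), followed by HOXB8 (17.5 ± 0.47), HOXB4 (15.01 ± 0.72) and HOXB9 (14.8 ± 0.55; SD, n = 3 each), of which the last pair did not differ beyond their spread. HOXA4, between HOXA3 and HOXA5 in the cluster, stood at 1.09, 0.621 and 1.01 CPM, and HOXC12 was at 0. Annotated exons of neighbouring HOX genes overlap in part, so reads could be split.

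**Figure D4:**
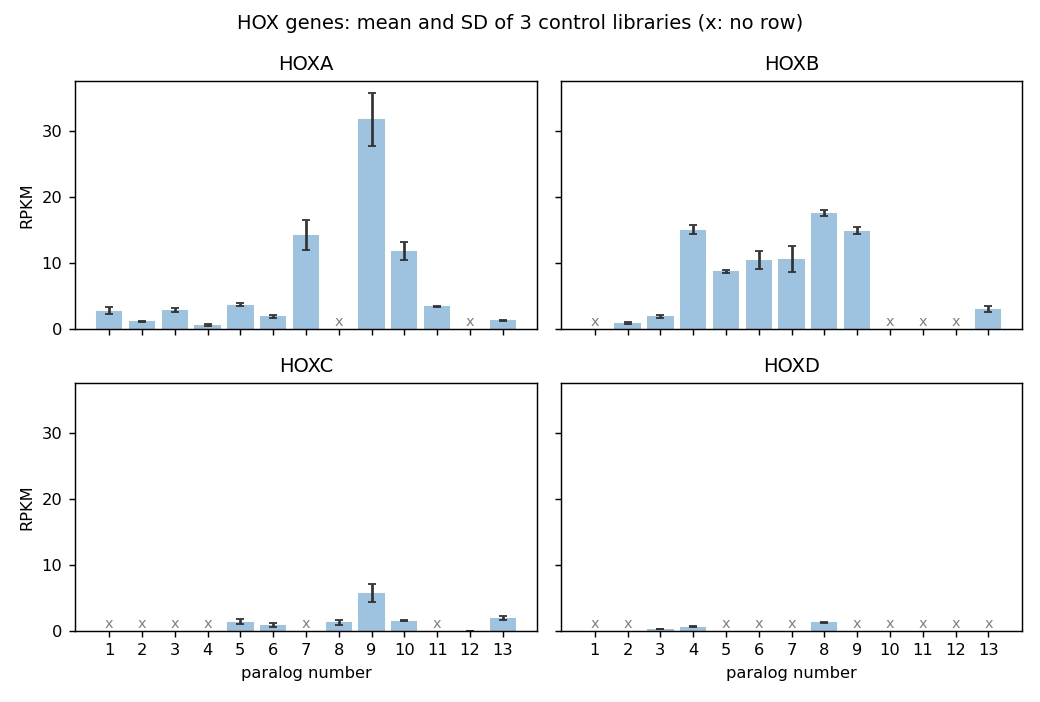
Bars give the mean RPKM of each HOX gene in the 3 control libraries, with the SD as error bars, by paralog number within each cluster; an x marks a number with no row, which includes numbers that have no gene in that cluster. HOXA7, HOXA9 and HOXA10 and HOXB4 to HOXB9 stand above the rest, and no HOXD bar exceeds 1.26.

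The libraries lay close to each other over most genes. For the 9581 genes at 10 CPM or more on average, the coefficient of variation (CV, the SD over the mean) had a median of 10.2%. With counting error taken out the median was 9.54%, with 5% of genes above 24.3%, and 1026 genes exceeded 20%. Log2(CPM + 1) correlated across these genes with r = 0.975 between libraries 1 and 2, 0.984 between 1 and 3 and 0.989 between 2 and 3, over genes that share these libraries. As a check for a library deposited more than once, the chi-square statistic of the reads was computed, and came to 27.5 to 54.7 per gene, where repeat counts of a single library would give about 1. A 2-fold gap was rare: 36 genes were higher in library 1 than in 2 by this much and 28 lower, 23 higher and 6 lower in 1 than in 3, and 2 in each direction between 2 and 3. The library farthest from the mean of the other 2 was library 1 for 39.9% of genes, library 2 for 37.02% and library 3 for 23.1%. The libraries were labelled as replicates, and per the study's methods they were separate biological replicates.

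H4C3, a replication-dependent histone H4 gene, had the largest spread, with 213, 8.44 and 9.16 CPM. Such histone mRNAs normally lack a poly(A) tail, and so are not expected in an oligo-dT library. H1-4 and H1-2 were also highest in library 1, at 14.9, 6.21 and 5.11 CPM and at 7.30, 3.21 and 4.002 CPM, as was H2BC12 at 7.48, 6.26 and 5.59 CPM, while H2BC5 stood at 1.22, 1.24 and 1.83 CPM. HMGA2-AS1 (38.004, 8.08 and 13.1 CPM) and ZBTB20 (32.7, 7.66 and 13.1 CPM), a transcriptional repressor, followed. KCNQ1OT1, an antisense RNA of an imprinted locus, stood at 23.0, 7.92 and 7.04 CPM, and ANKRD36C at 29.3, 9.32 and 11.5 CPM. In the opposite direction HSPG2 (perlecan), a very long mRNA, stood at 12.7, 39.9 and 20.5 CPM, and ENSG00000255103.1 at 6.35, 24.6 and 12.2 CPM. HMOX1, haem oxygenase, was low in library 2, with 94.8, 29.3 and 72.7 CPM. At the other end were GCAT, CDKN3, MZT1, CHORDC1, CCDC97, SS18L1, AAR2, ZNF143, NSMCE3 and NCBP3, whose CV was at most 0.34%, below what counting error gives. CHORDC1, for example, stood at 125.6, 125.4 and 125.4 CPM. They were chosen by rank alone.

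Others of the genes with the largest spread had transcripts rich in adenine. GOLGB1 (giantin, a protein of the Golgi membrane) stood at 233, 89.2 and 99.2 CPM, TRIP11 at 117, 48.6 and 50.5, EEA1 at 134, 54.4 and 61.3, and CCDC186 at 88.4, 34.4 and 34.6. ATAD5, which acts in DNA replication, stood at 77.1, 32.9 and 31.9 CPM, and ANKRD18A at 51.6, 17.1 and 24.0. CENPF, CENPE, GOLGA4 and CEP290, named after their values were seen, stood at 881, 405 and 415, at 373, 161 and 198, at 710, 302 and 377 and at 111, 52.3 and 59.8 CPM. In each, library 1 was the highest. Of the 30 genes with the largest excess in library 1, 19 had over 34% A in the canonical transcript, against 2.53% of all matched genes at 10 CPM or more. The pattern was seen first and then counted, so this is a description.

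The deviation of a library, its log2(CPM + 1) minus the mean of the other 2, followed transcript length. In library 1 its median fell from 0.30 for the 111 genes with canonical transcripts of up to 500 bases, and 0.24 for those of 500 to 1000 bases, to −0.16 at 4000 to 8000 bases and −0.22 above 8000 bases (806 genes). In library 2 it rose from −0.05 to 0.24 over the same bins, and in library 3 it stood at −0.18 in the shortest and −0.02 in the longest. Spearman's rho with length across 9392 genes was −0.51, 0.38 and 0.24 for libraries 1, 2 and 3. The 3 deviations sum to 0 in each gene, so they are not independent of each other. The adenine-rich transcripts went against this trend: among transcripts over 4000 bases with over 34% A (96 genes) the median was 0.48 in library 1 and −0.35 in library 2, against −0.18 and 0.17 at 28% to 31% A (1186 genes). Fragment sizes and RNA quality were not given in the sources used here, and their part was not tested.

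**Figure D5:**
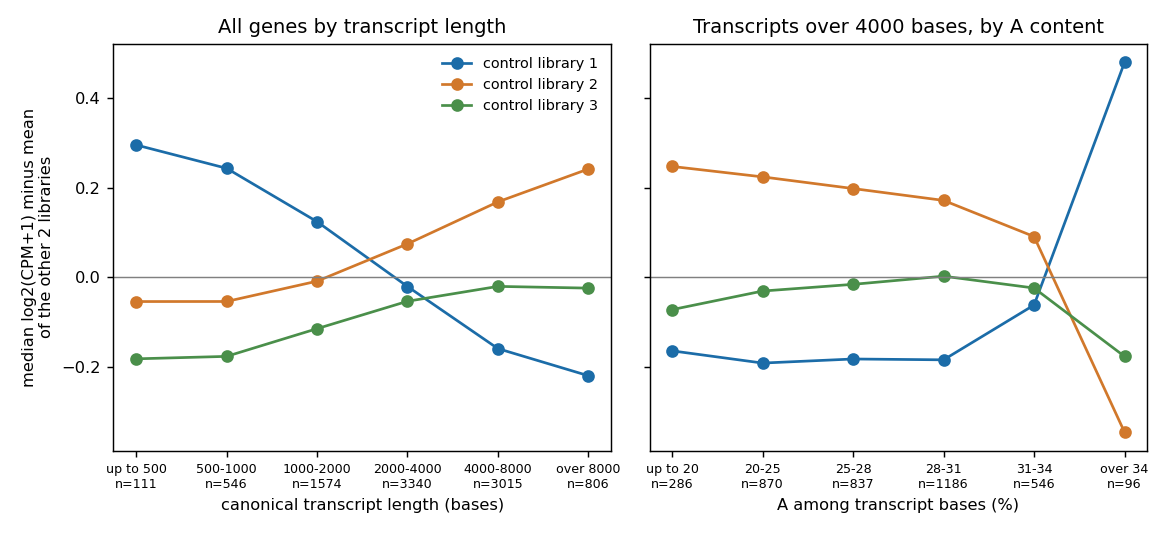
The median deviation of each control library from the mean of the other 2, as log2(CPM + 1), is drawn by canonical transcript length for all nuclear genes at 10 CPM or more (left) and by the share of A for transcripts over 4000 bases (right), with n genes in each bin. The line of library 1 falls from 0.30 to −0.22 with length and rises to 0.48 in the bin richest in A.

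The gene lists can be read against the same libraries and lengths. Library 1 was the highest of the 3 for 34.7% of the 9581 genes, and for 78 of 80 ribosomal protein genes, whose canonical transcripts had a median of 878 bases against 3387 over all genes, with a median deviation of 0.34. It was the lowest for 41.2% of all genes, for 21 of 29 colorectal driver genes (median deviation −0.20, median length 5214 bases), for 15 of 19 receptor tyrosine kinases and ligands (−0.15 and 4624 bases), and for all 11 stem cell and WNT genes (−0.25 and 4238 bases). These 4 list counts were the same after TMM scaling, which weighs libraries by the bulk of their genes in place of their totals.

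Library 2 was lowest for 21.3% of all genes, and for 13 of 20 long non-coding RNAs and 12 of 22 stress genes. On the TMM scale library 2 was lowest for 3207 of the 9581 genes in place of 2038. It was lowest there for 15 of these long non-coding RNAs and for 16 of these stress genes. The background and both lists thus rose, so these counts depend on the scaling. Among the stress genes were JUN, a subunit of the AP-1 transcription factor (37.6, 15.9 and 29.0 CPM), ATF3, a factor of the stress response (30.9, 15.9 and 24.7 CPM), and DDIT3, a factor of the unfolded protein response (41.1, 20.1 and 31.9 CPM). In each of them library 1 was the highest and library 2 the lowest. By unscaled CPM library 1 was highest for 15 of the 22 stress genes and lowest for 5, against 34.7% and 41.2% of all genes. Library 2 was highest for 2 of the 22, against 50.8% of all genes. Stress genes had a median spread beyond counting error of 16.3% against 9.54% over all genes, and proliferation genes a median of 4.68%. Library 3 was highest for 14.6% of all genes, and for 21 of the 25 mitochondrial genes at 10 CPM or more, with a median deviation of 0.28 on their log2 scale; on the TMM scale it was highest for 2557 of all genes and for the same count of 21 mitochondrial genes.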

How the data were processed

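RNA-seq was compared among the 3 control libraries only, with groups read from the labels and columns matched by name. The authors deposited CPM, reads divided by the library total. The submitters' processing notes name TopHat2, HTSeq and the GRCh37 (hg19) build; their options were not given in the sources used here. Every CPM was a whole number of reads (100% of values, tolerance 0.001 reads), from which totals were recovered. Of 15354 identifiers 14871 matched GENCODE release 44 lifted to GRCh37, which gave lengths, biotypes and overlaps. Genes at 1 CPM or more in all 3 libraries were called detected. Spread was the CV less counting error for genes at 10 CPM or more on average. No test was run, since there is no comparison between groups. The control libraries as a subject, and the 40 gene lists (580 genes with rows), were chosen with earlier results of these data known. Named genes were the 25 highest by RPKM and the 15 highest by CPM, list members (of lists over 12, the 5 highest and up to 5 not detected), the 15 largest and 10 smallest spreads, and the study's genes; other named list members were chosen after their values were seen. Tools were Python 3.11.15, numpy 2.4.6, pandas 2.3.3, scipy 1.17.1, numba 0.67.0, R 4.3.3 and edgeR 4.0.16 (TMM factors and dispersion). The spread and window counts were tested on simulated data. Alternatives were other thresholds, lengths, scalings, filters and leaving out each library. The sex chromosome Y was left out of what is reported. Some genes that the rule names are not reported here.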

Additional observations from a re-analysis of the deposited data

How the results depend on the processing

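No paired analysis was possible because the results come from no test and from a single group. The count of detected genes was 10741 at 5 CPM and 14520 at 3 reads in all 3 libraries, and between 13389 and 13419 without any 1 library. Leaving out mitochondrial and ribosomal protein genes lowered the share of reads in the 100 highest rows from 28.1% to 12.2%. The median RPKM of the listed genes was 7.79 with merged exons, 12.2 with the longest transcript and 13.6 with the canonical transcript, the last chosen after seeing the data. The median spread beyond counting error ran from 6.503% without library 1 to 9.20% without library 3, and edgeR's tagwise biological CV had a median of 11.8%. TMM factors, from 0.971 to 1.04, changed no direction of the length and adenine trends of library 1, nor did setting library 1 against library 2 or 3 alone. Of 25 leading rows by RPKM, 19 were shared with the order by CPM. Depth limits low rows: 1 CPM had a counting error of at least 21.3%.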

Other observations

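Lists of other cell types were checked in the same way. No endothelial or erythroid gene listed had a row, and of 5 leukocyte rows none was detected in all 3 libraries, CD68 coming nearest at 1.09, 0.777 and 0.579 CPM. Of 5 fibroblast rows S100A4, a calcium-binding protein that many tumour cells also make, stood at 79.6, 55.3 and 55.1 CPM and FBLN1 at 12.7, 13.6 and 14.4 CPM, while LUM and PDGFRA were at 0. Of 6 hepatocyte rows none was detected, with ALB at 0, 0.104 and 0.0482 CPM. Of 4 mucin rows MUC3A, a membrane mucin, stood at 23.0, 24.7 and 26.03 CPM, and MUC1 was just detected at 1.22, 1.55 and 1.78 CPM.

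A few genes of other lineages were above the limit. PMEL, a pigment cell protein, stood at 6.62, 7.56 and 6.89 CPM and MITF at 2.13, 3.003 and 2.07 CPM, with no row for other melanocyte genes of the list. Of 3 neuron rows TUBB3 and SYP were detected, at 4.85, 6.21 and 5.79 CPM and at 1.91, 2.12 and 2.17 CPM. MYH11, smooth muscle myosin, stood at 8.98, 8.08 and 7.47 CPM and DES at 1.09, 1.29 and 1.01 CPM. POU5F1, a factor of pluripotent cells with 6 named pseudogenes, was listed at 26.3, 22.2 and 22.9 CPM, while SOX2 stayed at or below 0.207 CPM. Of the 50-base windows of its transcript 69.7% occurred more than once in the genome.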
